A study of Homo sapiens with 24 samples.

Results

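The comparison described here set HEK293T cells that overexpressed SF3B2 against HEK293T cells that overexpressed snaR-A, without either control plasmid. It was made of 6 RNA-seq libraries, 3 of each group, of the 24 libraries in the series. HEK293T is a human embryonic kidney line that carries the SV40 large T antigen. The SF3B2 group had received a flag-tagged SF3B2 coding sequence in a pcDNA3.1 vector, and the snaR-A group a snaR-A sequence behind a U6 promoter, which RNA polymerase III reads. The eGFP control was cloned in the same pcDNA3.1 vector as SF3B2, and the scramble control, a shuffled snaR-A sequence, in the same kind of U6 plasmid as snaR-A. All groups were transfected with a lipid reagent and collected after 48 h. SF3B2 against snaR-A therefore also compared the 2 vectors, and within these 6 libraries the insert and the vector cannot be told apart. For this reason eGFP against scramble in HEK293T, which shares no library with the comparison and holds the same difference in vector, is given beside it. The same plasmids were used in A549, a human lung adenocarcinoma line, and SF3B2 against snaR-A in A549 is given where it bears on a result.

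SF3B2 is a subunit of SF3b, the part of the U2 small nuclear ribonucleoprotein (U2 snRNP) that holds the pre-mRNA around the branch point, the adenosine that attacks the 5′ splice site in the first step of splicing. SF3b works together with SF3a, and both leave the spliceosome before the exons are joined. snaR-A is a short noncoding RNA made by RNA polymerase III, found in some tumours and cell lines but in few normal tissues. The study linked snaR-A to U2 snRNP proteins and overexpressed both to compare their effects on mRNA processing. The genome holds several near-identical copies of the snaR-A gene, 14 of them named in RefSeq. One copy, SNAR-A6, is shown because its RNA is what the snaR-A group was given more of. It lies at chr19:50103955-50104075 on the minus strand of hg38 and is 121 bases long. Which copy the plasmid carried is not given in the sources used here, and no row of the table was matched to a snaR-A gene, so its level was not analysed here.
SNAR-A6: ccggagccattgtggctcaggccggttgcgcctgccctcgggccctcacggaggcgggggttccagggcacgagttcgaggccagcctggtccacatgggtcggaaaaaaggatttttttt

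The libraries held poly(A) RNA at great depth, with 200013048 to 259704262 counts in the SF3B2 libraries and 217507939 to 250377583 in the snaR-A libraries. Levels are given as CPM, each gene's share of the library's counts scaled up by a fixed factor, after TMM normalization over the 12 HEK293T libraries, in the order of replicates 1, 2 and 3. A count of 0 allows a level of up to 3 counts, which came to 0.0116 to 0.015 CPM in the SF3B2 libraries. CPM is not divided by gene length, so levels are compared between libraries and not between genes. The SF3B2 libraries differed among themselves more than the snaR-A libraries: the median standard deviation (SD) of log2 CPM over 13296 genes was 0.108 in the SF3B2 group and 0.0508 in the snaR-A group. On the second principal component of all HEK293T libraries, SF3B2 replicates 1 to 3 lay at -32.7, -17.6 and 3.04, and the snaR-A replicates between 9.50 and 11.02. The 13 mRNAs of the mitochondrial genome took 8.94, 6.75 and 4.38% of the counts in the SF3B2 libraries and 2.94, 3.68 and 4.36% in the snaR-A libraries. RNA typical of A549 was present at low level in SF3B2 replicate 3, where AKR1B10 stood at 5.56 CPM against 0.0455 to 0.362 in the other 5 libraries, and at a higher level in eGFP replicate 3, where the 12 A549 markers summed to 965 CPM against 51.9 to 80.0 in the other control libraries. Of the 12 markers chosen for HEK293T, CRABP1 was at or near 0 in all HEK293T libraries and SOX11 near 1 CPM. The part of these differences in the results below was not tested, except where a value without a library is given.

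SF3B2 stood far above its level in the snaR-A libraries. The gene lies at chr11:66050729-66069308 on hg38, on the plus strand, and its transcript model has 21 introns. Its level was 43972, 34022 and 28089 CPM in the SF3B2 libraries and 363, 364 and 360.3 CPM in the snaR-A libraries. The groups did not overlap, and the lowest SF3B2 library was still far above every snaR-A library. The means were 35361 ± 8026 and 362 ± 1.88 CPM (SD, n = 3 each), a ratio of 97.6. SF3B2 transcripts took 3.86, 3.19 and 2.78% of all counts in the transfected libraries and the library with the largest share of SF3B2 also had the largest mitochondrial share. In edgeR's quasi-likelihood F-test the log2 fold change was 6.62 ± 0.21 (SE), with an adjusted p of 0.000139. The two-sided exact permutation test gave p = 0.1, the smallest that 3 against 3 allows. Reads from the plasmid and from the chromosomal gene cannot be told apart in these counts. SF3B2 in the control libraries was 352, 389.6 and 343 CPM with eGFP and 434, 422 and 407 CPM with scramble. The snaR-A level thus lay inside the eGFP range and below the scramble range.

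The other subunits of SF3a and SF3b did not pass the quasi-likelihood test, but some passed in alternative analyses. Of 9 alternatives that left out no library, SF3A3 was called in 5, SF3B4 and SF3B5 in 4 each and SF3A2 in 1. With 1 library left out, the number of subunits called ran from 1 to 5. In the quasi-likelihood test of all 6 libraries, the 10 subunits had 1 call, SF3B2 itself, at an adjusted p under 0.05. Of all 22888 genes tested, 3.74% were called higher and 3.36% lower. SF3A1, which joins U2 snRNP to U1 at the start of spliceosome assembly, stood at 475, 220.2 and 241 CPM with SF3B2 and 217, 231 and 227 CPM with snaR-A. Only replicate 1 was high, the other SF3B2 libraries lay near the snaR-A range, and the log2 fold change of 0.48 ± 0.27 (SE) had an adjusted p of 0.26. SF3A3 was 289.7, 266 and 214 CPM against 189, 196 and 189 CPM, with no overlap, a log2 fold change of 0.43 ± 0.11 (SE) and an adjusted p of 0.053. SF3A2 had 76, 80.5 and 74.4 CPM against 64.4, 69.4 and 71.6 CPM, all SF3B2 libraries above all snaR-A libraries, at 0.18 ± 0.0576 (SE, adjusted p 0.0886).

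Within SF3b, the SF3B4 level, an RNA-binding subunit near the branch point, was 113, 99.7 and 93.5 CPM with SF3B2 and 78.5, 86.9 and 81.6 CPM with snaR-A (log2 fold change 0.32 ± 0.0791, SE, adjusted p 0.0539). SF3B5, a small subunit of the SF3b core, had values on the other side, at 33.2, 39.5 and 50 CPM against 56, 56.7 and 57.6 CPM (-0.46 ± 0.14, SE, adjusted p 0.0725). It was lowest in the library with the most SF3B2 RNA, and all SF3B2 libraries lay below the snaR-A range. SF3B1, the HEAT-repeat scaffold that carries the branch point pocket, lay at 614, 643 and 729 CPM against 626, 643 and 659 CPM, with overlapping groups. SF3B3, the β-propeller scaffold, had 490.1, 437 and 462 CPM against 453, 467 and 466 CPM. SF3B6, which contacts the branch point region, and PHF5A, which forms the pocket with SF3B1, had log2 fold changes of -0.011 ± 0.0525 and -0.043 ± 0.0901 (SE). The groups of these 4 subunits overlapped. NME1, a nucleoside diphosphate kinase, was 147, 163 and 179.9 CPM with SF3B2 and 174, 182 and 184 CPM with snaR-A. Its groups overlapped, the log2 fold change was -0.14 ± 0.0777 (SE), and the exact permutation test gave p = 0.2.

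**Figure D1:**
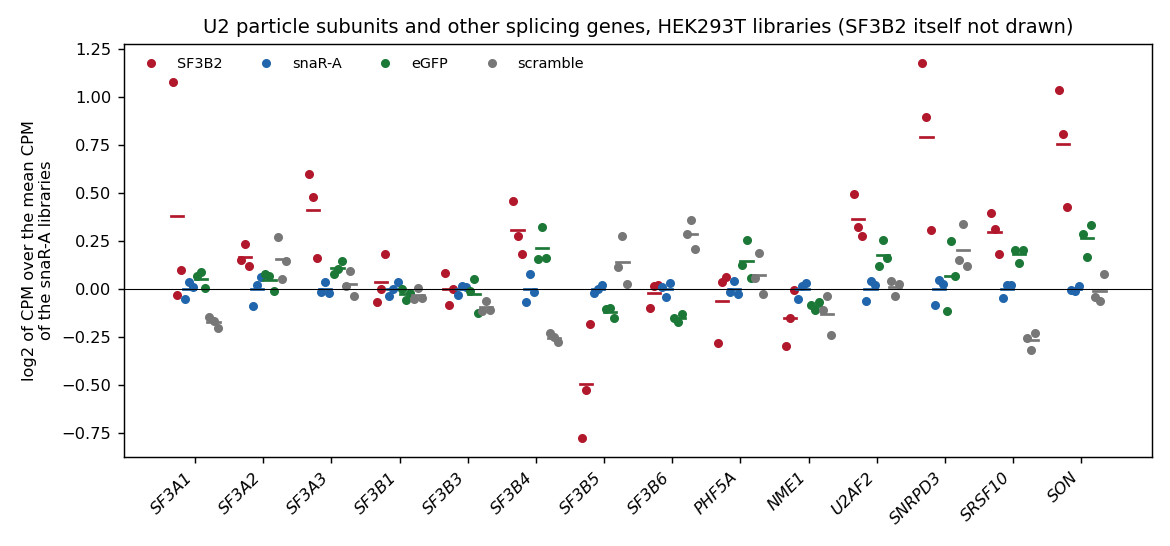
Each point is 1 HEK293T library, plotted as the log2 of its CPM over the mean CPM of the 3 snaR-A libraries. The genes are the SF3a and SF3b subunits other than SF3B2, NME1, which was not called, and the called splicing genes U2AF2, SNRPD3, SRSF10 and SON. Other called splicing genes are not drawn. SF3A1 is high in SF3B2 replicate 1 alone (475 CPM), while SNRPD3 and SON are highest in replicate 1 and lowest in replicate 3, which is still above the snaR-A libraries.

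Across all genes, 335 of 22888 tested, or 1.46%, passed the threshold, which asked for an adjusted p under 0.05 and a change of more than 1 on the log2 scale in either direction. Of these, 243 were higher with SF3B2 and 92 lower. Without the limit on fold change, 857 were higher and 768 lower. Most of the 335 were low in level: 39 had a mean of at least 1 log2 CPM. By annotation, 15693 protein-coding genes tested gave 110 higher and 44 lower calls. The 4524 long noncoding RNAs tested gave 77 and 30, and the 1139 pseudogenes 32 and 8, so protein-coding genes had the smallest share called of these classes. The groups did not overlap for any of the 335, and 39.9% of all genes tested also had no overlap. The count rested on single libraries. It was 208 without SF3B2 replicate 1, 16 without replicate 2 and 960 without replicate 3, and it was 1, 9 and 9 without snaR-A replicates 1, 2 and 3. The direction of the calls rested on the scaling. TMM put the median log2 fold change of all genes at -0.013, whereas scaling by library size alone put it at -0.19, with 201 higher and 261 lower past the threshold. Fold changes below are relative to the TMM scale, and a change of less than 0.19 in size can turn its sign between the scalings.

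Among the genes past the threshold with a mean of at least 1 log2 CPM, BTK rose the most after SF3B2 itself. BTK, a Tec-family tyrosine kinase that acts downstream of the B-cell receptor, lies at chrX:101349338-101390796 on hg38. It was 13.4, 8.65 and 9.16 CPM with SF3B2 and 0.827, 0.872 and 1.1 CPM with snaR-A, a log2 fold change of 3.49 ± 0.22 (SE, adjusted p 0.00301). All SF3B2 libraries were high and all snaR-A libraries near 1 CPM. POU2F2, an octamer-binding transcription factor of B cells, was 4.12, 3.94 and 3.07 CPM against 1.13, 1.07 and 1.29 CPM (1.68 ± 0.15, SE, adjusted p 0.00981). NPC1L1, the sterol transporter of the gut, was 2.57, 3 and 3.4 CPM against 1.13, 1.26 and 1.12 CPM (1.36 ± 0.14, SE, adjusted p 0.0132). ALDH1L1, a folate dehydrogenase, was 14, 16 and 16.6 CPM against 6.41, 5.78 and 6.23 CPM (1.35 ± 0.0899, SE, adjusted p 0.00366). The lack of overlap was a condition of the choice, so nothing is read from it, and 39.9% of all genes tested had none.

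Some of the other high genes were pseudogenes, antisense genes or readthrough genes. IRS3P, a pseudogene of the insulin receptor substrate family, had 6.06, 4.54 and 4.11 CPM against 0.512, 0.505 and 0.528 CPM (3.26 ± 0.17, SE). FAM3C2P, a pseudogene of FAM3C, had 15.5, 9.28 and 1.58 CPM against 1.18, 0.892 and 0.708 CPM (3.25 ± 0.74, SE), with SF3B2 replicate 3 far below the others of its group. GET1-SH3BGR, a readthrough of 2 neighbouring genes, had 3.82, 3.44 and 3.03 CPM against 1.75, 1.23 and 1.36 CPM (1.25 ± 0.16, SE). All 31-base stretches of the annotated FAM3C2P transcripts, and 97.3% of those of GET1-SH3BGR, also occur in another gene, so reads may have been split between them and both values are uncertain. EXTL3-AS1, an antisense RNA, rose by 1.28 on the log2 scale, FRMPD1, a scaffold protein, by 1.28, and DNAH17, an axonemal dynein heavy chain, by 1.23. The kit kept the strand, and whether the counting used it is not given in the sources used here, so reads of antisense genes may include those of their partners.

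In the other direction, 9 genes met the same conditions and were lower with SF3B2. DGKD, a diacylglycerol kinase, had 3.35, 3.56 and 8.6 CPM with SF3B2 and 30.8, 33 and 17.3 CPM with snaR-A (-2.37 ± 0.42, SE, adjusted p 0.0333). SF3B2 replicate 3 and snaR-A replicate 3 each lay toward the other group, without overlap. INHBE, an activin subunit that liver cells secrete and that ATF4 controls, had 2.87, 2.98 and 4.08 CPM against 7.54, 9 and 7.32 CPM (-1.25 ± 0.16, SE, adjusted p 0.0232). Among the 9 were 3 histone genes. H4C14 had 11.7, 5.15 and 11.9 CPM against 39.5, 38 and 36.8 CPM (-1.98 ± 0.29, SE), H2AC6 fell by 1.16 on the log2 scale and H1-2 by 1.10. WEE2-AS1, an antisense RNA, had 0.843, 1.15 and 0.987 CPM against 3.01, 4.89 and 2.51 CPM (-1.80 ± 0.26, SE). EMID1, an extracellular matrix protein, had a log2 fold change of -1.09, A1BG, a plasma glycoprotein, of -1.004, and ASNSP1, a pseudogene related to asparagine synthetase, of -1.02. Stretches shared with other genes made up 98.6% of H4C14, 55.3% of ASNSP1 and 49.7% of A1BG, and their values are uncertain for that reason.

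The eGFP and scramble libraries showed how much of these differences also lay between the controls of the same vectors. That comparison had 2504 of 22613 genes past the threshold, or 11.1%, and at an adjusted p under 0.05 it called 22.9% of genes higher and 25.8% lower. Of the 10 genes named as highest with SF3B2, 8 were also called higher with eGFP than with scramble. IRS3P stood at 6.25, 7.99 and 6.34 CPM with eGFP and 0.584, 0.523 and 0.551 CPM with scramble, which were close to the levels with SF3B2 and with snaR-A. NPC1L1 differed more between the controls (2.64 ± 0.14, SE) than between SF3B2 and snaR-A, and so did DNAH17 (3.85 ± 0.26, SE) and ALDH1L1 (2.15 ± 0.11, SE). BTK was 1.86, 2.06 and 1.78 CPM with eGFP and 0.478, 0.666 and 0.6 CPM with scramble, a smaller difference (1.72 ± 0.16, SE) at a lower level than with SF3B2. Of the 9 genes named as lowest, 3 were called in the same direction between the controls and 2 in the opposite one. INHBE was opposite, at 13.5, 16.1 and 12.1 CPM with eGFP against 3.62, 3.16 and 3.24 CPM with scramble, and H2AC6 likewise (0.99 ± 0.0863, SE).

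**Figure D2:**
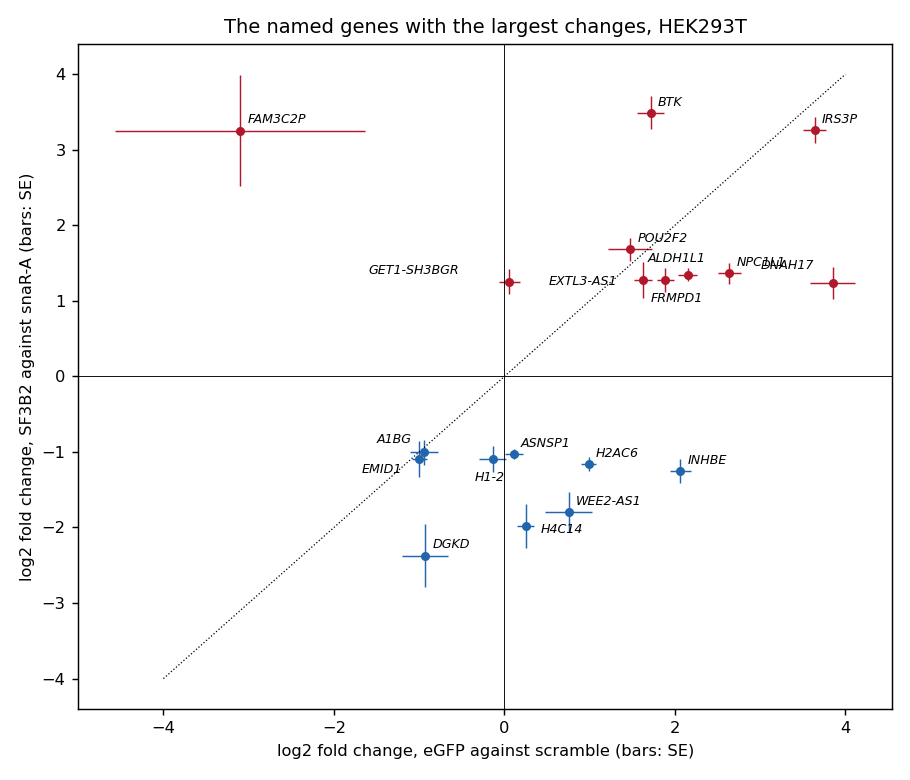
The log2 fold change of SF3B2 against snaR-A (vertical axis) is plotted against that of eGFP against scramble (horizontal axis) for the 19 named genes with the largest changes, with bars of 1 SE and a dotted line at equal values. IRS3P lies near the line, BTK above it at 3.49 against 1.72, NPC1L1 and DNAH17 right of it, and INHBE and H2AC6 have opposite signs in the 2 comparisons.

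The excess of SF3B2 against snaR-A over eGFP against scramble was tested as an interaction over all 12 HEK293T libraries, and 30.9% of 23869 genes had an adjusted p under 0.05. SF3B2 had an excess of 6.83 ± 0.21 (SE). Of the 10 highest genes 3 had a called excess in the same direction, BTK, FAM3C2P and GET1-SH3BGR, and 4 a called excess below 0, NPC1L1, ALDH1L1, FRMPD1 and DNAH17, which differed more between the controls. Of the 9 lowest genes 6 had a called excess, all below 0. Over all genes tested, 15.7% had a called excess above 0 and 15.2% below. The highest and lowest genes were picked by SF3B2 against snaR-A, which is part of the excess. Nothing is therefore read from their counts against these shares. BTK kept an excess of 1.77 ± 0.26 (SE, adjusted p 0.000733). FAM3C2P had 6.34 ± 1.78 (SE), with 0, 0.988 and 0 CPM in the eGFP libraries. LINC02246, a long noncoding RNA, had 2.001 ± 0.22 (SE) from 6, 5.73 and 5.76 CPM with SF3B2, 2.83, 2.68 and 2.59 CPM with snaR-A, 2.07, 1.65 and 2.52 CPM with eGFP and 3.66, 3.26 and 4.64 CPM with scramble. Its SF3B2 level was above all 3 other groups. TTC28-AS1, an antisense RNA, and SCARNA7, a small Cajal body RNA that guides the modification of a spliceosomal RNA, had excesses of 1.53 ± 0.32 and 1.52 ± 0.31 (SE). On the low side the excess was -3.32 ± 0.22 for INHBE, -2.62 ± 0.36 for DNAH17, -2.55 ± 0.42 for WEE2-AS1, -2.23 ± 0.34 for H4C14 and -2.15 ± 0.12 for H2AC6 (SE). For IRS3P it was -0.38 ± 0.21 and for POU2F2 0.20 ± 0.32 (SE), and their adjusted p were 0.199 and 0.673. The excess calls split 3756 higher and 3621 lower under TMM and 1047 higher and 6752 lower when scaled by library size alone.

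Heat shock genes were higher with SF3B2 than with snaR-A. Cells answer unfolded protein by activating HSF1, a transcription factor that binds heat shock elements, inverted repeats of GAA, near chaperone genes and raises HSP70, HSP90 and their helpers. Of 20 heat shock genes tested, 12 were higher at an adjusted p under 0.05, 60% of the list where 3.74% of all genes were called higher. The median log2 fold change of the list was 0.39, against -0.013 over all genes tested, and it was 0.21 with library size alone. The list held 25 genes, of which 23 were in the table and 20 passed the filter on low counts. The calls rested on single libraries, while the size of the change did not. The number called was 10 without SF3B2 replicate 1, 14 without replicate 3 and 0 without SF3B2 replicate 2 or any 1 of the 3 snaR-A libraries, and the list's median stayed between 0.32 and 0.41.

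The chaperones of the HSP70 class and their co-chaperones made up most of the calls. HSPA6, the strictly stress-inducible HSP70, was 0.733, 0.789 and 0.879 CPM with SF3B2 and 0.254, 0.375 and 0.299 CPM with snaR-A (1.38 ± 0.19, SE, adjusted p 0.025). It was low in both groups, well above the level of 3 counts, and did not overlap. Of its 31-base stretches 57.1% are shared with another gene. HSPA8, the constitutive HSP70, was 1722, 1583 and 1631 CPM against 1155, 1322 and 1340.3 CPM (0.38 ± 0.0818, SE, adjusted p 0.0428). HSPH1, HSPA4L and HSPA4, nucleotide exchange factors of the HSP110 family, had 0.41 ± 0.0612, 0.35 ± 0.0675 and 0.27 ± 0.0597 (SE). Among the J-domain proteins that deliver clients to HSP70, DNAJA1 was 483, 424 and 427 CPM against 301, 332 and 341 CPM (0.46 ± 0.0776, SE, adjusted p 0.0301). DNAJB4 was 58.1, 54.1 and 47 CPM against 40.4, 39.7 and 38.4 CPM (0.43 ± 0.08, SE), and DNAJB1 was 130.3, 149 and 158 CPM against 104, 113 and 109.8 CPM (0.43 ± 0.0767, SE). BAG3, a co-chaperone in selective autophagy, had 0.35 ± 0.0526 (SE). In each of these genes the SF3B2 libraries lay above all snaR-A libraries, where 39.9% of all genes tested had no overlap in either direction.

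Of the HSP90 system, 3 of 5 listed genes were called higher. HSP90AA1, the inducible HSP90, was 4052, 3848 and 3757 CPM with SF3B2 and 2823, 2966 and 2950.4 CPM with snaR-A (0.42 ± 0.0727, SE, adjusted p 0.0313). AHSA1, the activator of its ATPase, had 0.40 ± 0.09 (SE), and STIP1, which bridges HSP70 and HSP90, 0.26 ± 0.0583 (SE). HSP90AB1, the constitutive HSP90, and FKBP4, an HSP90 co-chaperone, did not pass, at 0.17 ± 0.0659 and 0.063 ± 0.053 (SE), adjusted p 0.135 and 0.436. They were among 8 tested members of the list that did not pass. HSPD1, the mitochondrial chaperonin, had 2492, 2017 and 1508 CPM against 1375, 1425 and 1431 CPM and an adjusted p of 0.0883, and HSPE1, its lid, had 0.41 ± 0.11 (SE). HSPA1A, the classical inducible HSP70, had 0.312, 1.47 and 2.06 CPM against 0.877, 0.786 and 0.845 CPM, with overlapping groups, and shares 76% of its stretches with other genes. The small heat shock protein HSPB1 had a log2 fold change of 0.0062.

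**Figure D3:**
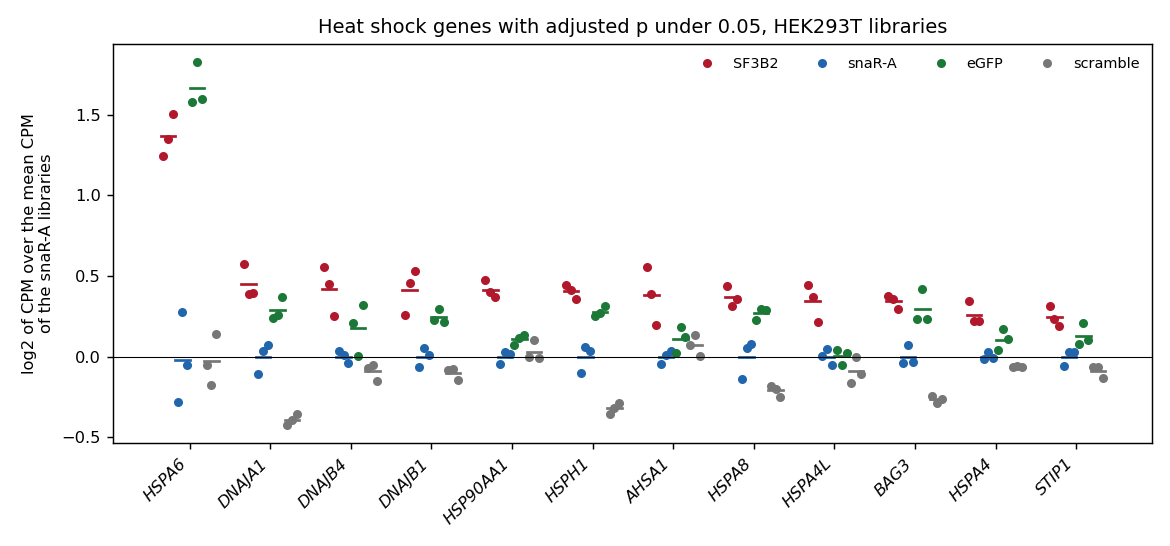
Each point is 1 HEK293T library, plotted as the log2 of its CPM over the mean CPM of the 3 snaR-A libraries, for the 12 heat shock genes called in the comparison. The SF3B2 libraries lie above the snaR-A libraries for every gene, and for 9 of them (all but HSP90AA1, AHSA1 and HSPA4L) the eGFP libraries lie above the scramble libraries as well.

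Most of the genes called here also differed between the controls. In eGFP against scramble, 9 of the 20 were called higher and 2 lower, where 22.9% of all genes were called higher and 25.8% lower. All 9 were among the 12 called with SF3B2. DNAJA1 was 384, 388 and 419 CPM with eGFP and 242, 247 and 254 CPM with scramble (0.69 ± 0.0577, SE), HSPA6 had 1.70 ± 0.16 (SE), HSPH1 0.61 ± 0.0488 (SE) and BAG3 0.57 ± 0.0549 (SE). In the excess, 2 of these 12 passed an adjusted p under 0.05, HSP90AA1 at 0.34 ± 0.0875 and AHSA1 at 0.35 ± 0.11 (SE). Of all genes, 15.7% had a called excess above 0 and 15.2% below. The 12 were picked by SF3B2 against snaR-A, which is part of the excess, so nothing is read from their count. HSPD1 and HSPE1 also passed in the excess, at 0.61 ± 0.19 and 0.47 ± 0.15 (SE).

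Promoter sequences are shown for the 3 called heat shock genes whose promoter held a perfect pair of facing GAA units. The window ran from 250 bases before to 50 bases after the annotated start (RefSeq, GRCh38.p14), and 18 of the 20 tested genes had an entry. Only the first listed start of each gene was searched, so a window without a match does not show that the gene lacks the element. The search looked for GAANNTTC and TTCNNGAA, each of which reads the same on both strands. Either was present in 3 of the 12 called genes and in 3 of the 6 genes not called, and in 13.7% of 27305 promoters of the same length. Overlapping matches form one longer run of alternating units. The windows lie at chr1:161524290-161524589 on the plus strand for HSPA6, chr9:33025023-33025322 on the plus strand for DNAJA1 and chr11:123062087-123062386 on the minus strand for HSPA8, and capitals mark the matches.
HSPA6: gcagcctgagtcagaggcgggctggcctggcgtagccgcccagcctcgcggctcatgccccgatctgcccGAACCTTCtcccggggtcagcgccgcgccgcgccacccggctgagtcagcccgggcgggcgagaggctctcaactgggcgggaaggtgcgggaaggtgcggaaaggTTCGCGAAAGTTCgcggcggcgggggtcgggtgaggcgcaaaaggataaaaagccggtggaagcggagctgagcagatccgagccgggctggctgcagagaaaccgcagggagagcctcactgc
DNAJA1: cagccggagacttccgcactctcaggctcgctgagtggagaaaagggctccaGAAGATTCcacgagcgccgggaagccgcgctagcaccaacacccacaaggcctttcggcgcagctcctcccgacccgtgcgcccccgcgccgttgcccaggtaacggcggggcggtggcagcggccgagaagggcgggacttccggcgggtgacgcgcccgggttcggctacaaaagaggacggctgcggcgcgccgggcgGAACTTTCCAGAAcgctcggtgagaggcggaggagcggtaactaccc
HSPA8: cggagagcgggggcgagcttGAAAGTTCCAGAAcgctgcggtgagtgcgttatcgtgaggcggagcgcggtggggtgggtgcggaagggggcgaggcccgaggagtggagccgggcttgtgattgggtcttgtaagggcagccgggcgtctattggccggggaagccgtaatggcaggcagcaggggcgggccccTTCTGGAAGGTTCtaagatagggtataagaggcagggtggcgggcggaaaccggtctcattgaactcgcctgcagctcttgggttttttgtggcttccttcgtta
HSPA6 and DNAJA1 held 3 matches each and HSPA8 held 4. HSPA6 had the largest fold change of the called heat shock genes and DNAJA1 the next, at 1.38 and 0.46, and HSPA8 lay at 0.38, below DNAJB4 and DNAJB1, whose windows held no match.

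Splicing factor genes outside SF3a and SF3b had list medians above 0 on the TMM scale, with few calls. Of all genes tested, 7.1% were called, 3.74% higher and 3.36% lower, and single calls per list are read against that share. Among 17 other U2 snRNP and branch point factors the median log2 fold change was 0.21 and 1 was called. That was U2AF2, the large U2AF subunit, which reads the polypyrimidine tract, at 282, 250.3 and 242 CPM against 192, 206 and 203 CPM (0.38 ± 0.0707, SE, adjusted p 0.0364). Of 36 proteins of U1, U5, U4/U6 and the Sm ring, 1 was called, with a list median of 0.13. SNRPD3, an Sm protein, was 382, 314 and 209 CPM against 159.8, 175 and 172 CPM (0.84 ± 0.20, SE, adjusted p 0.0485) and was highest in the library with the most SF3B2 RNA. Of 20 SR proteins and their kinases 1 was called, SRSF10 at 0.31 ± 0.0672 (SE), with a median of 0.089. Of 26 hnRNP proteins 1 was called, HNRNPA3 at 0.32 ± 0.0715 (SE), with a median of 0.25.

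Nuclear speckles, the bodies where splicing factors are stored, had 3 calls of 16 genes, all higher, where 3.74% of all genes were called higher, and a median of 0.27. SON, a scaffold of the speckle core, was 903, 770.3 and 593 CPM with SF3B2 and 439, 438 and 446 CPM with snaR-A (0.79 ± 0.14, SE, adjusted p 0.0337). SRRM2, the other core scaffold, was 983, 864 and 872 CPM against 667, 691 and 707 CPM (0.41 ± 0.072, SE), and THRAP3 had 0.42 ± 0.0892 (SE). The levels of SON and THRAP3 were highest in SF3B2 replicate 1 and lowest in replicate 3, still above every snaR-A library. Between the controls, 10 of these 16 genes were called higher and 1 lower, with a median of 0.29, where 22.9% of all genes were higher and 25.8% lower. The excess was 0.50 ± 0.17 for SON, 0.52 ± 0.16 for SRRM2 and 0.0055 ± 0.10 for THRAP3 (SE). Of 19 genes of the exon junction complex and nonsense-mediated decay, MAGOH and SMG1 were called, at 0.38 ± 0.0876 and 0.30 ± 0.0684 (SE). Under library size alone the medians of the SR, U1 and Sm and exon junction lists turned negative, at -0.087, -0.048 and -0.051, while those of the U2, hnRNP and speckle lists stayed above 0, at 0.028, 0.068 and 0.086.

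A list of 10 transcripts was taken from those the study named for lower intron retention or more protein after siRNA depletion of snaR-A, a measure other than the mRNA level given here. The study chose them with its own data in view, so they are not independent evidence of a direction. With SF3B2, 2 of the 10 were called, both lower, where 3.36% of all genes were lower, and the median was -0.12. MUS81, a structure-specific DNA nuclease subunit, was 19.7, 19.1 and 23.1 CPM against 27, 28.5 and 28.8 CPM (-0.44 ± 0.083, SE, adjusted p 0.0364). PAN2, a deadenylase subunit, was 50.4, 48.7 and 49 CPM against 59.1, 60.8 and 65.8 CPM (-0.32 ± 0.0554, SE, adjusted p 0.0329). Both fell without overlap between the groups. The values of the others were -0.27 for HIP1R, -0.24 for TRABD, -0.14 for TIMELESS, -0.089 for TTC31, -0.026 for AP1G2, -0.0071 for DMKN, 0.045 for OGFR and 0.16 for G3BP2. MTA1, MCRIP2 and AUP1, which the study also named and the list did not hold, had -0.18, -0.40 and -0.15, with adjusted p of 0.158, 0.091 and 0.0844. Between the controls 7 of the 10 were called lower and 1 higher, where 25.8% of all genes were lower and 22.9% higher. A second list held the mRNAs of proteins recovered with snaR-A in a pull-down. Of its 57 tested members, 4 were higher, the transfected SF3B2 among them, and 2 lower, where 3.74% of all genes were higher and 3.36% lower. SRSF10 and PURB, a single-stranded nucleic acid-binding protein, were higher, and LMF1, a lipase maturation factor, and MCCC1, a mitochondrial carboxylase subunit, lower, at -0.86 ± 0.16 and -0.34 ± 0.0596 (SE).

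The 13 mRNAs of the mitochondrial genome, which encode subunits of the respiratory chain and of ATP synthase, all had positive log2 fold changes, and 1 of them passed the test. Their median log2 fold change was 1.09, and single genes lay between 0.68 and 1.33. MT-ATP8, an ATP synthase subunit, was 4369.8, 3826 and 2239 CPM with SF3B2 and 1237, 1647 and 1867 CPM with snaR-A (1.14 ± 0.26, SE, adjusted p 0.0467). MT-ND1, a complex I subunit, was 4861, 2833 and 1824 CPM against 916, 1286 and 1600.1 CPM (1.33 ± 0.36, SE, adjusted p 0.0638), and MT-CO1, a cytochrome oxidase subunit, was 17683, 13387 and 7966 CPM against 5829, 6985 and 8033 CPM. The groups overlapped for MT-CO1, where snaR-A replicate 3 exceeded SF3B2 replicate 3. Relative to the snaR-A mean, the median of the 13 was 1.56, 1.07 and 0.44 in SF3B2 replicates 1, 2 and 3. Other tests of the same 6 libraries called more of them, 13 with edgeR's exactTest and 12 with DESeq2. The quasi-likelihood test called 13 without SF3B2 replicate 3, but its count fell as low as 0 when another single library was dropped. The list's median stayed between 0.76 and 1.36 whichever library was dropped. Between eGFP and scramble the median was -0.026. In the excess, all 13 were positive and 6 had an adjusted p under 0.05, where 15.7% of all genes had a called excess above 0.

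Histone genes, a list chosen after their values were seen, held calls on the low side. Of 51 tested, 9 were called, all lower, where 3.36% of all genes were called lower. Of the 51, 49 had a negative log2 fold change, and the median was -0.91. H2AC6, a core H2A, was 4.15, 3.67 and 3.73 CPM against 8.53, 9.28 and 8.19 CPM (-1.16 ± 0.0945, SE, adjusted p 0.00813), and H1-2, a replication-dependent linker histone, was 5.86, 6.48 and 8.56 CPM against 17.7, 13.9 and 13.4 CPM (-1.10 ± 0.17, SE). H2AC18 and H2BC17 had -0.96 ± 0.22 and -1.11 ± 0.24 (SE). All 9 called genes had SF3B2 libraries below every snaR-A library, where 39.9% of all genes tested had no overlap in either direction. The number called was 37 without SF3B2 replicate 3, 5 without replicate 1, 1 without replicate 2 and 0 without any 1 snaR-A library. The list's median relative to the snaR-A mean was -1.33, -1.15 and -0.36 in SF3B2 replicates 1, 2 and 3, the same order as for the mitochondrial mRNAs with the opposite sign. Between the controls the histone median had the other sign, 0.63, with 15 of 48 tested called higher with eGFP and 3 lower, where 22.9% of all genes were higher and 25.8% lower. In the excess, 26 of the 51 were called, all lower, where 15.2% of all genes were lower. Near-identical histone genes share reads, so single members are uncertain.

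**Figure D4:**
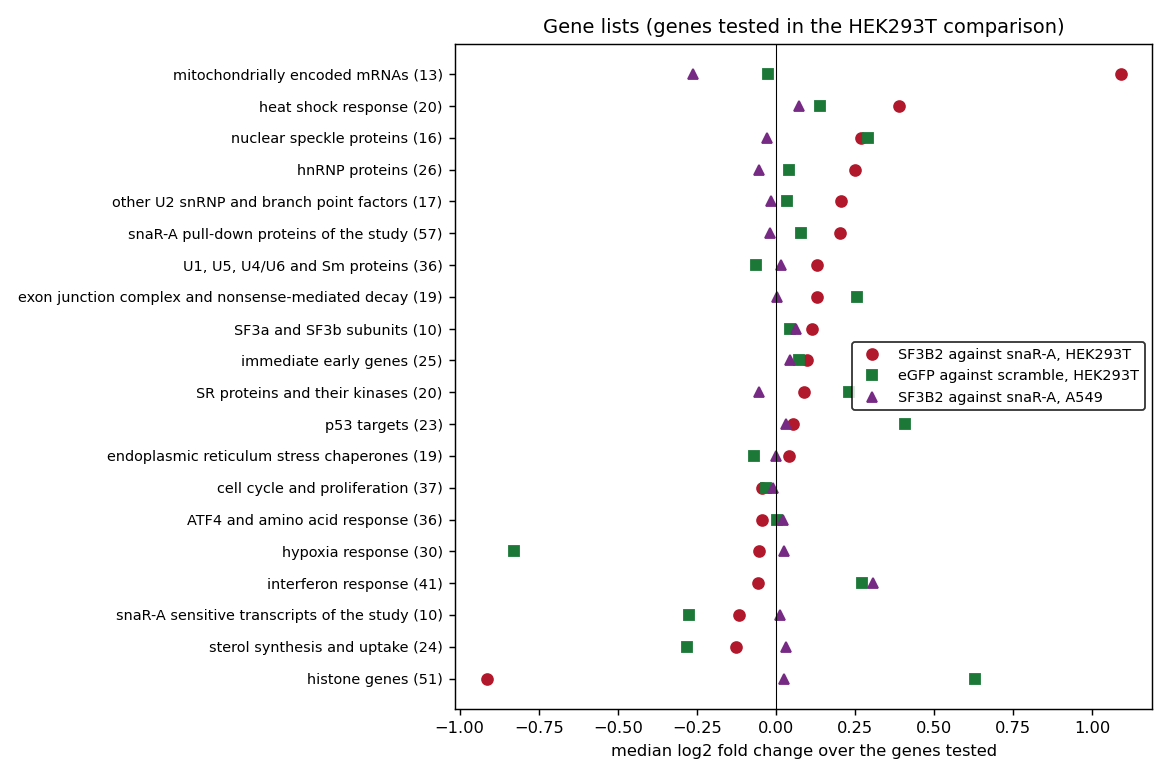
The median log2 fold change over the members of each gene list is plotted for SF3B2 against snaR-A in HEK293T (circles), eGFP against scramble in HEK293T (squares) and SF3B2 against snaR-A in A549 (triangles), with the number of genes tested in the HEK293T comparison in brackets. The mitochondrial mRNAs (1.09) and histone genes (-0.91) lie farthest from 0 in HEK293T SF3B2 against snaR-A, and heat shock (0.39) leads the rest of the lists drawn, which leave out the lists of cell line markers.

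Stress and signalling lists had few calls each, which are read against 3.74% of all genes called higher and 3.36% lower. Among 36 targets of ATF4, the transcription factor of the amino acid response, GDF15, a secreted stress cytokine, was higher at 2.8, 3.19 and 2.67 CPM against 1.24, 1.51 and 1.17 CPM (1.15 ± 0.14, SE), and INHBE and ASNS, asparagine synthetase, were lower. ASNS was 174, 190.0 and 194 CPM against 281, 247 and 259 CPM (-0.49 ± 0.069, SE), with 48.4% of its stretches shared with other genes. Of 19 chaperones and sensors of endoplasmic reticulum stress, 1 was called, XBP1 at -0.25 ± 0.0525 (SE). Of 41 interferon response genes, 2 were higher and 2 lower. EIF2AK2, the double-stranded RNA sensor PKR, was 223, 196 and 161 CPM against 139, 136 and 126 CPM (0.54 ± 0.11, SE, adjusted p 0.0416). XAF1 was higher at 1.77 ± 0.32 (SE), from 0.224, 0.224 and 0.31 CPM against 0.0721, 0.102 and 0.0484 CPM. USP18, the brake on interferon receptor signalling, which shares 28.7% of its stretches with other genes, and STAT2 were lower at -0.53 ± 0.0854 and -0.21 ± 0.0476 (SE).

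Of 23 p53 targets, 3 were higher: MDM2, the ligase that turns p53 over, at 311, 301 and 272 CPM against 188, 193 and 192 CPM (0.64 ± 0.0624, SE), TP53INP1 at 0.53 ± 0.06 and ZMAT3 at 0.49 ± 0.067 (SE). In eGFP against scramble 18 of the 23 were called higher, as were 22.9% of all genes. Of 25 immediate early genes 3 were higher and 2 lower. FOSB was 5.83, 4.44 and 4.21 CPM against 2.53, 2.41 and 2.62 CPM (0.95 ± 0.14, SE), EGR1 and EGR3 had 0.94 ± 0.18 and 0.76 ± 0.18 (SE), and DUSP2, a MAP kinase phosphatase, and KLF6 had -0.70 ± 0.13 and -0.24 ± 0.0474 (SE). Of 24 sterol genes 2 were lower, INSIG1, which holds SREBP in the endoplasmic reticulum, at 266, 282 and 274 CPM against 393, 335 and 338 CPM (-0.37 ± 0.0736, SE), and HSD17B7 at -0.27 ± 0.0519 (SE). Of 37 cell cycle genes MKI67 was higher and AURKB lower, at 0.45 ± 0.0943 and -0.31 ± 0.072 (SE). Of 30 hypoxia genes EGLN3 was lower at -0.38 ± 0.0758 (SE), where 25 of the 30 were called lower between eGFP and scramble, as were 25.8% of all genes. The 10 tested A549 markers had a median of 1.69, and their medians were 0.23, 0.63 and 2.76 in SF3B2 replicates 1, 2 and 3. Of 11 tested HEK293T markers, NEFL, a neurofilament subunit, was lower at -0.23 ± 0.0492 (SE).

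Fold changes varied with the make-up of the transcripts. Protein-coding genes with a GENCODE transcript were divided into 5 equal groups. From the lowest to the highest GC content the median log2 fold change went 0.080, 0.042, -0.018, -0.082 and -0.15. The fall from first to last group ran from 0.12 to -0.23 in SF3B2 replicate 1, from 0.095 to -0.18 in replicate 2 and from 0.028 to -0.041 in replicate 3, each against the snaR-A mean. By transcript length the medians rose from -0.10 in the shortest group (207 to 1941 bases) to 0.077 in the longest (6056 to 34626 bases). Calls of higher genes made up 1.47% of the shortest and 10.9% of the longest group. By number of introns they ranged from -0.048 for 0 to 4 introns to 0.033 for 17 or more. Within the lowest GC group, the shortest genes had a median of 0.017 and the longest 0.14, and within the highest GC group -0.20 and -0.055. In A549 the GC order was turned around, from -0.054 in the lowest to 0.13 in the highest group. These are descriptions, since library preparation also acts on length and GC content, and its part was not tested.

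**Figure D5:**
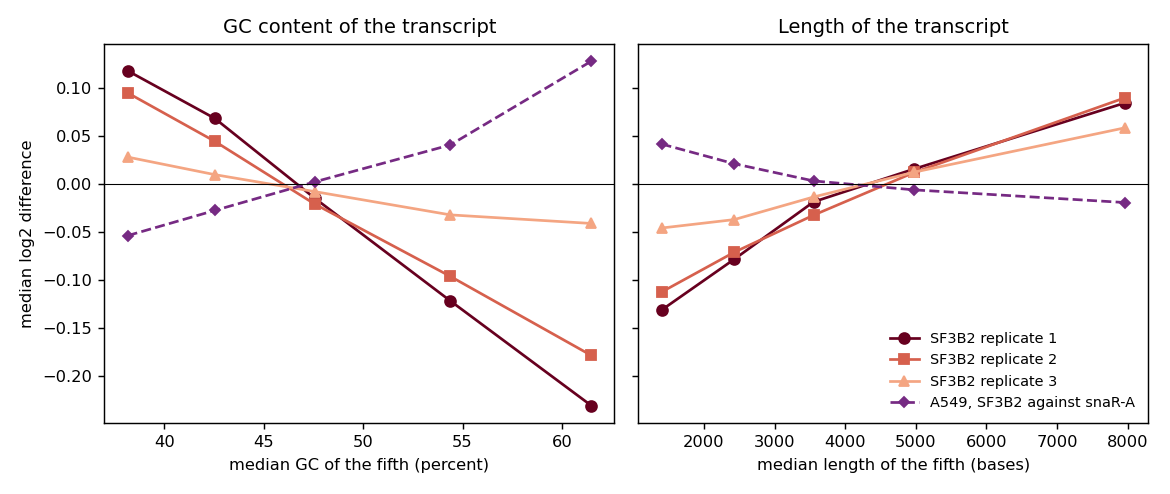
The median log2 difference is plotted for 5 equal groups of protein-coding genes ordered by GC content (left) and by transcript length (right). Solid lines are SF3B2 replicates 1, 2 and 3 in HEK293T, each against the snaR-A mean, and the dashed line is SF3B2 against snaR-A in A549. In each SF3B2 replicate the median falls with GC content, from 0.12 to -0.23 in replicate 1 and from 0.028 to -0.041 in replicate 3. It rises with length, from -0.13 to 0.084 in replicate 1 and from -0.046 to 0.058 in replicate 3. In A549 both orders are turned around.

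Over genes, SF3B2 against snaR-A and eGFP against scramble overlapped in part. Of 22191 genes tested in both, without SF3B2, 1599 were called in the first and 10895 in the second at an adjusted p under 0.05. Of these 768 had the same direction, 48% of the first list and 7.05% of the second, and 199 had opposite directions. Past the threshold, 151 genes were called in the same direction, 48.9% of 309 and 6.37% of 2372, and 15 in opposite ones. The Spearman correlation of the fold changes across genes was 0.26, given as a description since genes are not independent replicates.

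In A549 the same plasmids gave far fewer calls. SF3B2 was 41711, 39723 and 39260.0 CPM with SF3B2 and 255, 251 and 266 CPM with snaR-A (7.29 ± 0.0473, SE). Of 21617 genes tested, 20 passed the threshold, or 0.0925%, and at an adjusted p under 0.05 0.426% were higher and 0.25% lower. That count was between 8 and 12 when any of 5 libraries was left out and 109 without snaR-A replicate 3, a library whose label fields disagree on the cell line and whose A549 markers summed to 18399 CPM, as in the other A549 libraries. Besides SF3B2, 26 genes were called in both lines, 17 in the same direction. Across 19879 genes tested in both lines, the Spearman correlation of the fold changes was -0.16 and Pearson's r -0.053, given as a description. BTK was 1.52, 1.39 and 1.45 CPM against 0.483, 0.531 and 0.556 CPM in A549 (1.47 ± 0.11, SE, adjusted p 0.00211). HSPA6 was 7.37, 7.17 and 7.66 CPM against 0.505, 0.57 and 0.658 CPM, with a log2 fold change of 3.68 ± 0.11 (SE) that exceeded the HEK293T value. DNAJB1 and BAG3 were also called in both lines, at 0.22 ± 0.0286 and 0.28 ± 0.0256 (SE) in A549, as were NPC1L1, FRMPD1 and H4C14. SNRPD3 was among the 9 with opposite directions, at -0.19 ± 0.0272 (SE) in A549.

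Whether the SF3B2 to snaR-A difference itself differed between the lines was tested as an interaction over 12 libraries, and 12.3% of 24831 genes had an adjusted p under 0.05. They split 1602 higher and 1446 lower in HEK293T under TMM, and 1289 and 1841 with RLE normalization. BTK had a larger fold change in HEK293T by 2.03 ± 0.25, SON by 0.81 ± 0.16 and SNRPD3 by 1.04 ± 0.22 (SE). HSPA6 had a smaller one, with a difference of -2.29 ± 0.21 (SE). EMID1 and A1BG had -1.09 and -1.004 in HEK293T and 0.82 and 0.63 in A549, and differed by -1.91 ± 0.43 and -1.63 ± 0.24 (SE). Neither was called in A549, with adjusted p of 0.223 and 0.0796 in the quasi-likelihood F-test. There EMID1 was 0.103, 0.236 and 0.179 CPM with SF3B2 and 0.0786, 0.0969 and 0.119 CPM with snaR-A, with overlapping groups. A1BG was 0.564, 0.544 and 0.584 CPM against 0.386, 0.407 and 0.297 CPM, without overlap. For SF3B2 the difference was -0.66 ± 0.18 (SE, adjusted p 0.0391), with the A549 libraries at 41711, 39723 and 39260.0 CPM. Of the 13 mitochondrial mRNAs, 12 differed between the lines, all with larger fold changes in HEK293T, and in A549 all 13 had negative values with a median of -0.26.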

How the data were processed

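RNA-seq was analysed from 24 libraries of transfected cells, 3 biological replicates of each of 4 plasmids in each of 2 cell lines. The authors trimmed the reads with Trim Galore, quantified them with Salmon on hg38 and deposited 1 table of estimated counts per Ensembl gene, which were not normalized between libraries. The study's methods give tool versions for its siRNA libraries. The transcriptome release and the tool that summed transcripts to genes are not given in the sources used here. The table held 60236 genes, and 50.96% of its values were not whole, so they were rounded. Genes with no symbol took 2.91% of the counts and stayed in the tests.

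Each comparison used edgeR 4.0.16 in R 4.3.3: filterByExpr, TMM normalization and the quasi-likelihood F-test, with p adjusted by Benjamini-Hochberg over all genes tested. SE is that of the log2 fold change. Single genes were also tested by a two-sided exact permutation test on CPM. Excesses and differences between lines were interaction contrasts over 12 libraries. Gene positions and lengths came from GENCODE 44. The share of 31-base stretches found in another gene measured reads that genes could share. Steps were tested on simulated data: at a log2 fold change of 1, 62% of 100 changed genes were recovered, and at 2, 84% of 100, in the comparison of SF3B2 with snaR-A, where 18 unchanged genes were also called. For the excess these were 56%, 76% and 6, and for the difference between lines 50%, 67% and 8. The simulation gave all groups the same spread per gene, whereas the real SF3B2 libraries differed among themselves more than the snaR-A libraries. The recovered shares and false calls may therefore not hold for the real libraries. Floors cover counting error only, while SEs and SDs also hold the spread between replicates.

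The members, lists and alternatives were chosen with earlier results of these data known. Named were SF3B2, NME1 and all SF3a and SF3b subunits, the 10 largest changes in each direction among genes that passed the threshold, had a symbol and a mean of 1 log2 CPM or more, and did not overlap between groups, the 5 largest excesses in each direction among such genes, up to 3 called genes in each direction per list, and every member of a list of 10 or fewer. Other genes named, the rest of the heat shock and histone genes among them, were chosen after their values were seen. Alternatives were edgeR's exactTest, DESeq2 1.42.0, RLE normalization, scaling by library size, testing without the filter, a filter of 10 counts in every library, the replicate number as a block, all 12 libraries of a line in one fit, SF3B2 removed before normalization, and each library left out. Replicate numbers were not used as pairs in the main fit. The correlations of same-numbered residuals were -0.104, 0.186 and 0.0201, which does not exclude a factor shared by replicate number. No 2 replicates were copies of each other. Some single genes are not reported here.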

Additional observations from a re-analysis of the deposited data

Results flagged for a closer look

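The SF3B2 to snaR-A difference was tested for a difference between the cell lines, and 3048 of 24831 genes, or 12.3%, had an adjusted p under 0.05. Of 80 named genes, 54 were among them. Most of the 80 were named because they were called in HEK293T, so nothing is read from that share. The values below are the log2 fold change in HEK293T minus that in A549, each from edgeR's interaction test.

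SF3B2 itself stood lower in HEK293T by this measure, at -0.66. Among other splicing genes, the difference was 0.58 for SF3A3, -0.54 for SF3B5, 0.27 for U2AF2, 1.04 for SNRPD3, 0.41 for SRSF10, 0.39 for HNRNPA3, 0.81 for SON, 0.41 for THRAP3, 0.48 for SRRM2, 0.63 for MAGOH and 0.42 for SMG1. Of the genes with the largest changes, it was 2.03 for BTK, 2.83 for IRS3P, 3.23 for FAM3C2P, 1.11 for POU2F2, 1.03 for ALDH1L1, 1.63 for EXTL3-AS1, 1.35 for DNAH17, 1.10 for LINC02246, 2.52 for TTC28-AS1 and 1.44 for SCARNA7. Those lower in HEK293T had -2.35 for DGKD, -1.37 for H4C14, -1.43 for WEE2-AS1, -1.58 for INHBE, -0.88 for H2AC6, -0.84 for H1-2, -1.91 for EMID1 and -1.63 for A1BG.

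For the study's own lists the difference was -0.64 for MUS81, -0.40 for TRABD, -0.42 for HIP1R, 0.40 for PURB and -0.33 for MCCC1. In the stress lists it was 1.03 for GDF15, -0.51 for ASNS, -0.28 for XBP1, -2.29 for HSPA6, 0.38 for DNAJA1, 0.50 for DNAJB4 and -0.88 for USP18. It was 0.47 for MKI67, 0.77 for MDM2, 0.61 for TP53INP1, 0.48 for ZMAT3, 0.91 for FOSB, 1.16 for EGR1, -1.22 for DUSP2, -0.23 for KLF6, -0.39 for INSIG1, -0.29 for HSD17B7, 1.72 for MT-ATP8 and -0.26 for NEFL.

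One library outside the comparison carried SF3B2 RNA above its group. SF3B2 stood at 7470 CPM in A549 scramble replicate 3, against 317 and 288 CPM in replicates 1 and 2 of that group. Of the fits described here, the library enters that of all 12 A549 libraries, an alternative.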

How the results depend on the processing

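SF3B2 kept its direction and its call in SF3B2 against snaR-A in HEK293T under every alternative run, with a log2 fold change between 6.43 and 6.76. The number of genes past the threshold in that comparison, 335, moved to 614 with edgeR's exactTest and 532 with all 12 HEK293T libraries in one fit, and was 464 with DESeq2. With the replicate number as a block it was 2, and the block gave 2355 for eGFP against scramble, 4 for A549, 6727 for the excess and 2457 for the difference between lines. Leaving out 1 library gave 1 to 960 in HEK293T, 8 to 109 in A549 and, for the difference between lines, 783 to 6679. The A549 count, 20, was 87 with exactTest, 10 with DESeq2, 35 with library size alone, 53 with no low-count filter and 6 with all 12 A549 libraries. The difference between lines was 5404 with DESeq2. The cause of these shifts was not tested. Counts for eGFP against scramble (2282 to 2721 over libraries left out) and for the excess (5335 to 8688) stayed within 1.5 times. Without eGFP replicate 3, which carried A549 RNA, they were 2721 and 7151.

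Near 0, some named genes turned sign. With DESeq2 and with RLE, SF3B6 was 0.00048 in both, and DMKN was 0.0049 and 0.0050. With library size alone SF3B1 was -0.12, SF3B3 -0.16, OGFR -0.13 and G3BP2 -0.015. Over libraries left out, SF3B1 ran from -0.018 to 0.10, SF3B3 from -0.031 to 0.056, SF3B6 from -0.035 to 0.025, PHF5A from -0.099 to 0.057, DMKN from -0.048 to 0.054, AP1G2 from -0.087 to 0.054 and OGFR from -0.023 to 0.094. Of all other values of named genes, 826 kept their direction and side of the threshold, 29 passed it and 327 lost the call, most of these under the block or without 1 library. Depth as a limit was not tested, and 296 of the 335 genes had a mean under 1 log2 CPM.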
